A study of Mus musculus with 7 samples.

Results

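The Myc, Max and Mxd network is described here through 10 genes of the 24341 in the expression table of the Eμ-Ret leukemia study, chosen by name as the Myc family and the partners of Max. They were Myc, Mycn and Mycl of the Myc family, Max and the Max-like protein gene Mlx as partners, and Mxd1, Mxd3, Mxd4, Mxi1 and Mnt as repressors. The libraries were made from B-cell precursors (BCP) of the spleen, in 4 preleukemic and 3 leukemic samples. The labels describe sorting by flow cytometry for both groups, but the study's methods left most leukemic spleen cells for culture without enrichment, and which held for the leukemic RNA is not given in the sources used here. All 7 samples came from untreated Emu-Ret hemizygotes on a BALB/c background, in which a Ret fusion gene is driven by the IgH enhancer. The preleukemic samples came from young healthy mice and the leukemic samples from older moribund mice with overt disease, so that age and disease changed together. The ages were not given in the sources used here, both sexes were used, and both groups carried the transgene.

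Myc proteins bind DNA as heterodimers with Max, mostly at the hexamer CACGTG known as the E-box, and there raise the transcription of genes for ribosome assembly, metabolism and cell division. Mxd proteins, Mxi1 and Mnt compete for Max and for the same hexamer, and recruit Sin3 and histone deacetylases to lower transcription. In the B lineage, Myc is required for the growth of dividing precursors and is a frequent oncogene of lymphoid tumors. Mlx is a Max-like protein that pairs with the Mondo proteins, which sense glucose metabolites, and with some Mxd proteins.

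Since the network acts at a defined hexamer, the promoters of its own genes were read for it. The windows ran from 250 bases before to 50 bases after a transcription start (RefSeq, GRCm38.p6) and were given for 9 of the 10 genes. The letters CACGTG, which read the same on both strands, occurred in 4 of these 9 (44.4%), against 7.15% of all 32851 windows of this length and 12.4% of the 8128 genes tested here that had a window. The 4 sites are shown, each with 12 flanking bases per side, 5′ to 3′ on the gene's strand, with the hexamer in capitals, because they are the letters that Myc and its repressors share.
Mxd4, chr5:34187912-34187941, minus strand: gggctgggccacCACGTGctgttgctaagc
Mnt, chr11:74830789-74830818, plus strand: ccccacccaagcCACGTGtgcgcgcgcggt
Mlx, chr11:101087238-101087267, plus strand: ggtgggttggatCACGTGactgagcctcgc
Max, chr12:76962234-76962263, minus strand: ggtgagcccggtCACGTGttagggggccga
The hexamer lay 219 to 214 bases before the start of Mxd4, 123 to 118 bases before that of Mnt and 40 to 35 bases before that of Mlx, and it spanned the start of Max. The windows of Mycl, Mycn, Mxd1 and Mxd3 and the 3 windows of Mxi1 did not hold these letters. A match is a description of the sequence and not a measured binding site.

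Expression was read as FPKM, fragments relative to transcript length and sequencing depth, which the authors deposited for each gene in each sample. Depth could be read back from the steps between low values, and was 13.7 to 16.4 M fragments per sample. At the lowest depth, a transcript of 1500 bases has a counting error of 22.1% at 1 FPKM and of 6.98% at 10 FPKM, which covers counting alone. The test took in the 10541 genes with an FPKM sum of 10 or more across the samples, on log2(FPKM + 1), a scale that understates the change of weakly expressed genes. Fold changes are leukemic over preleukemic on this scale, with their standard error (SE), from limma with Benjamini-Hochberg adjustment over all 10541 genes, and calls are genes with an adjusted p under 0.05. No label says whether each sample came from a separate mouse, and the p-values measure only the spread between these samples. Since these are bulk samples, fewer cells of a type and less RNA per cell cannot be told apart.

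Of the defining B-lineage markers, Cd79a was at 869 to 1194 FPKM in the leukemic samples and at 1259 to 1626 in the preleukemic samples. Enpep, which encodes the BP-1 antigen used to sort BCP cells, was at 19.1, 102 and 77.2 FPKM in leukemic replicates 1 to 3 and at 134 to 210 in the preleukemic samples. Markers of other cells were higher in the leukemic samples. All 17 erythroid markers tested were called higher, and the summed FPKM of the list was 5815, 26697 and 13049 in leukemic replicates 1 to 3 against 2857, 449, 436 and 424 in preleukemic replicates 1 to 4. Hbb-bs, of that list, was at the lowest listed value in all samples, but it has the same coordinates as Hbb-b1. Hbb-b1 was at 3293 to 17337.5 FPKM in the leukemic samples and at 129 to 1577 in the preleukemic samples. The macrophage markers (9 of 13 called higher, summed FPKM of 175 to 425 against 40.6 to 94.3), the neutrophil markers (5 of 10, 1424 to 1760 against 149 to 869) and the platelet markers (4 of 4, 14.6 to 55.8 against 1.71 to 3.46) differed in the same direction. None of the 7 T and NK cell markers tested was called, 1 of 6 plasma cell markers (16.7%) was called higher, and 4 of 17 B-cell precursor markers (23.5%) were called lower. Of all genes tested, 8.47% were called higher and 6.26% lower.

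Mxd1 and Mxi1 were the only network genes called between the groups, and both were higher in the leukemic samples. They were 2 of 8 genes tested (25%), where 14.7% of all genes were called in either direction, 8.47% higher and 6.26% lower. The same 2 of 8 were the only genes without overlap between the groups, where 32.0% of all genes had none. Myc, Max, Mxd3, Mxd4, Mnt and Mlx were not called, and Mycn and Mycl were too low to be tested. The median log2 fold change of the 8 was 0.15, with 4 above 0 and 4 below, beside a median of -0.02 over all genes tested.

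**Figure D1:**
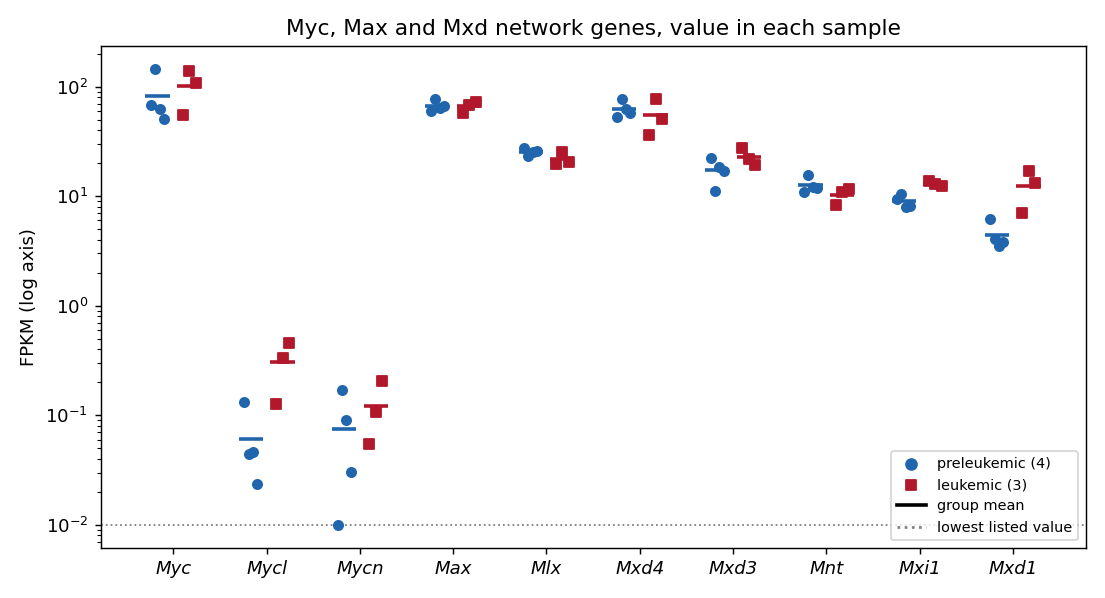
FPKM of the 10 network genes on a log axis in each of 4 preleukemic (circles) and 3 leukemic (squares) samples, with the group means as short lines and the lowest listed value of 0.01 as a dotted line. The leukemic squares lie above every preleukemic circle for Mxi1 and Mxd1, and Mycn and Mycl lie below 0.5 FPKM throughout.

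Myc (chr15:61985341-61990361, GRCm38) had the highest mean FPKM of the network in both groups, though Max was above it in leukemic replicate 1 and preleukemic replicates 3 and 4, and Mxd4 in these preleukemic samples. It was at 54.8, 139 and 108 FPKM in leukemic replicates 1 to 3 and at 68.7, 146, 62.5 and 50.3 FPKM in preleukemic replicates 1 to 4. The highest value of all was in a preleukemic sample, and leukemic replicate 1 was below 3 of the 4 preleukemic samples, so the groups overlapped. The means were 101 ± 42.6 (SD, n = 3) and 81.8 ± 43.3 (SD, n = 4) FPKM. The log2 fold change was 0.32 (SE 0.43, limma adjusted p = 0.62), with a 95% interval from -0.68 to 1.31 that leaves room for a change in either direction. The fold change ranged from 0.04 without leukemic replicate 2 to 0.70 without leukemic replicate 1, was 0.64 without preleukemic replicate 2, 0.22 and 0.13 without leukemic replicate 3 and preleukemic replicate 4, and was not called under any alternative. Its level stood at percentile 91.0 of the genes tested, and its spread among the preleukemic samples, a SD of 0.66 in log2, at percentile 97.6. Among the leukemic samples the spread was a SD of 0.69, at percentile 89.9.

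The other genes of the Myc family were almost silent. Mycl (chr4:122995931-123002480) was at 0.126, 0.333 and 0.459 FPKM in leukemic replicates 1 to 3 and at 0.131, 0.0442, 0.0465 and 0.0236 in preleukemic replicates 1 to 4. Mycn (chr12:12936093-12941836) was at 0.0545, 0.108 and 0.206 FPKM in the leukemic samples and at 0.01, 0.172, 0.0905 and 0.0306 in the preleukemic samples, where 0.01 is the lowest value listed. The ranges of both genes overlapped between the groups. Myc held 99.4% to 99.9% of the FPKM of the 3 family genes in every sample.

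Max, the partner that Myc and its repressors share, differed little between samples. Max (chr12:76937269-76962248) was at 58.0, 67.6 and 73.2 FPKM in leukemic replicates 1 to 3 and at 59.9, 76.5, 63.5 and 67.2 in preleukemic replicates 1 to 4. Its means were 66.3 ± 7.69 (SD, n = 3) and 66.8 ± 7.15 (SD, n = 4) FPKM and its ranges overlapped. The log2 fold change was -0.01 (SE 0.12, limma adjusted p = 0.95), and the 95% interval ran from -0.28 to 0.26. The ratio of Myc to Max was 0.945, 2.06 and 1.48 in leukemic replicates 1 to 3 and 1.15, 1.90, 0.984 and 0.748 in preleukemic replicates 1 to 4, and it followed Myc.

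Mlx (chr11:101087290-101095435) was at 19.8, 25.5 and 20.6 FPKM in leukemic replicates 1 to 3 and at 27.8, 23.4, 25.1 and 26 in preleukemic replicates 1 to 4. Leukemic replicates 1 and 3 were below every preleukemic sample, and leukemic replicate 2 was within their range. The log2 fold change was -0.22 (SE 0.11, limma adjusted p = 0.202), with a 95% interval from -0.47 to 0.04.

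Among the repressors, Mxd1 had the largest difference. Mxd1 (chr6:86647045-86669159), a repressor known to rise as myeloid and other blood cells mature, was at 7.01, 16.9 and 13.1 FPKM in leukemic replicates 1 to 3 and at 6.20, 4.04, 3.52 and 3.80 in preleukemic replicates 1 to 4. Every leukemic sample was above every preleukemic sample, but leukemic replicate 1 lay close to preleukemic replicate 1. The means were 12.3 ± 4.98 (SD, n = 3) and 4.39 ± 1.23 (SD, n = 4) FPKM, a ratio of 2.81, and the log2 fold change was 1.25 (SE 0.29, limma adjusted p = 0.0316). The call was lost when leukemic replicate 2, the highest, was left out (1.0, adjusted p = 0.0588), and also without leukemic replicate 3 or preleukemic replicate 2, 3 or 4 (1.18 to 1.23, adjusted p from 0.0704 to 0.0978).

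Mxd1 and the erythroid markers had the same order among the samples where they were highest. The 3 leukemic samples and preleukemic replicate 1 stood in the same order in both, with leukemic replicate 2 first, then leukemic replicate 3, leukemic replicate 1 and preleukemic replicate 1. The defining erythroid gene Slc4a1, the anion exchanger of the red cell membrane, was at 175, 597 and 365 FPKM in leukemic replicates 1 to 3, at 75.6 in preleukemic replicate 1 and at 2.53 to 4.49 in the other preleukemic samples. The summed macrophage and platelet markers also had leukemic replicate 2 first and leukemic replicate 3 next. So did the summed B-cell precursor markers, at 7050, 5877 and 4490 FPKM in leukemic replicates 2, 3 and 1. The T and NK cell and plasma cell sums and Myc had this leukemic order too. The neutrophil sum was instead lowest in leukemic replicate 2 (1424 FPKM). The part of any of these cells in the Mxd1 difference was not tested.

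**Figure D2:**
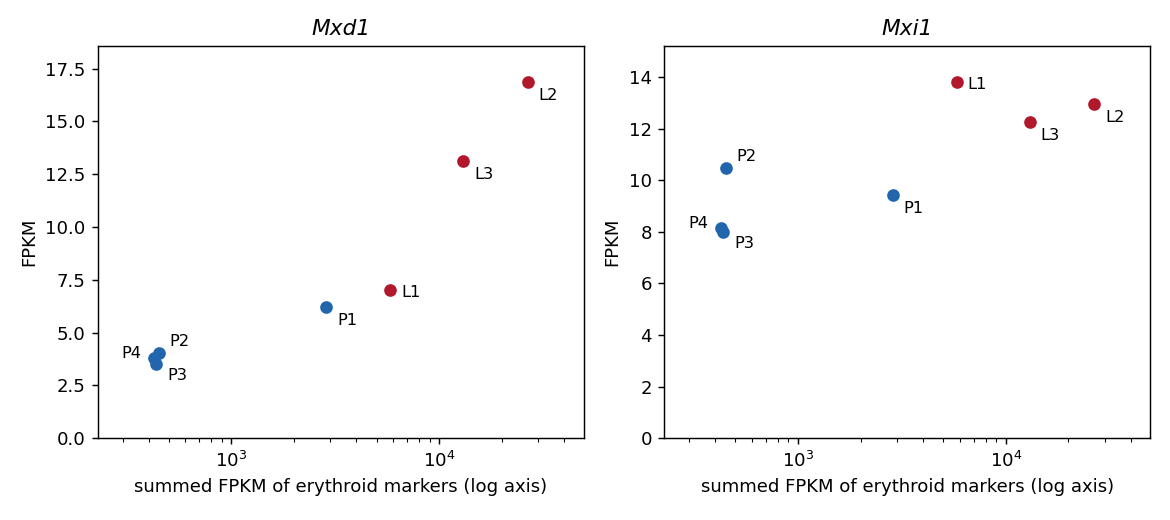
FPKM of Mxd1 (left) and Mxi1 (right) against the summed FPKM of the erythroid markers on a log axis, 1 point per sample, with L1 to L3 the leukemic and P1 to P4 the preleukemic replicates. Mxd1 was highest in L2, which had the highest erythroid sum (26697), and Mxi1 was highest in L1, which had the lowest erythroid sum of the leukemic samples (5815).

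Mxi1 (chr19:53310506-53375810), also known as Mxd2 and named for its binding to Max, had a smaller but more even difference. It was at 13.8, 13 and 12.3 FPKM in leukemic replicates 1 to 3 and at 9.42, 10.5, 8.01 and 8.14 in preleukemic replicates 1 to 4. The groups did not overlap. The highest leukemic value was in the sample with the lowest erythroid sum of its group, but the leukemic values lay close together. The part of erythroid cells in the Mxi1 difference was not tested. The means were 13 ± 0.783 (SD, n = 3) and 9.01 ± 1.16 (SD, n = 4) FPKM, a ratio of 1.44, and the log2 fold change was 0.49 (SE 0.11, limma adjusted p = 0.0301). Its spread among the leukemic samples, a SD of 0.08 in log2, stood at percentile 12.9 of the genes tested. Among the preleukemic samples it was a SD of 0.17, at percentile 65.8. The difference was 0.44 to 0.56 whichever sample was left out, and the call was lost without leukemic replicate 1 or 2 or preleukemic replicate 1, 3 or 4 (adjusted p from 0.0546 to 0.0949).

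Mxd4 was the most highly expressed repressor and was not called. Mxd4 (chr5:34176580-34187710) was at 36, 77.9 and 50.1 FPKM in leukemic replicates 1 to 3 and at 53.3, 77.8, 63.1 and 56.9 in preleukemic replicates 1 to 4. Leukemic replicates 1 and 3 were below every preleukemic sample and leukemic replicate 2 above all of them, though by little. The log2 fold change was -0.25 (SE 0.25, limma adjusted p = 0.503), with a 95% interval from -0.84 to 0.34.

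Mxd3, a repressor associated with the S phase of dividing cells, was at 27.5, 22.0 and 19.2 FPKM in leukemic replicates 1 to 3 and at 22.4, 11.0, 18.6 and 17.1 in preleukemic replicates 1 to 4 (chr13:55322055-55329730). Preleukemic replicate 2 was far below the other samples and the groups overlapped. The log2 fold change was 0.41 (SE 0.23, limma adjusted p = 0.245), with a 95% interval from -0.13 to 0.95. Mnt, the repressor that is present in most cells whether or not they divide, was at 8.23, 10.8 and 11.7 FPKM in leukemic replicates 1 to 3 and at 10.9, 15.7, 12.1 and 11.9 in preleukemic replicates 1 to 4 (chr11:74830924-74845725). Leukemic replicates 1 and 2 were below all preleukemic samples and leukemic replicate 3 was within their range. The log2 fold change was -0.28 (SE 0.16, limma adjusted p = 0.243), with a 95% interval from -0.65 to 0.09.

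**Figure D3:**
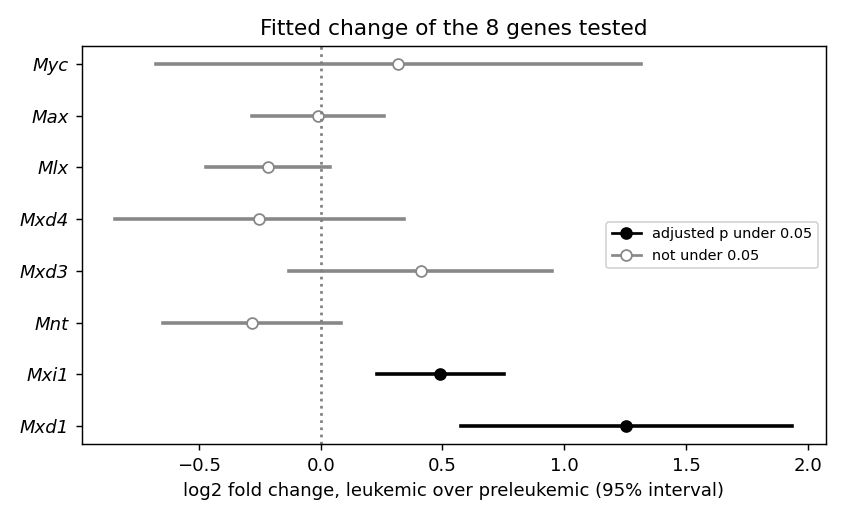
Log2 fold change of the 8 network genes tested, leukemic over preleukemic, with 95% intervals and a dotted line at 0. Filled points are the 2 genes with an adjusted p under 0.05, Mxi1 (0.49) and Mxd1 (1.25), and the intervals of the other 6 genes include 0.

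By group mean, Myc, Max and Mxd4 came first in both groups and the order below them differed. In the leukemic samples it ran from Myc, Max and Mxd4 through Mxd3 and Mlx to Mxi1, Mxd1 and Mnt, with Mycl and Mycn last. Neighbors within these sets overlapped between samples, and the steps from Mxd4 to Mxd3, from Mlx to Mxi1 and from Mnt to Mycl did not. In the preleukemic samples Myc, Max and Mxd4 again came first and overlapped, followed by Mlx, then by Mxd3 and Mnt, which overlapped each other, and then by Mxi1 and Mxd1, each below the gene before it without overlap. The library was stranded, but whether the counting used the strand is not given in the sources used here, and Mlx, Mxd3, Mxd4 and Mxi1 each overlap a gene on the opposite strand in GENCODE.

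The share of Mxd1 among the repressors was higher in the leukemic samples, while the sum of the repressors overlapped between the groups. The FPKM of the 5 repressors summed to 92.6, 140 and 106 in leukemic replicates 1 to 3 and to 102, 119, 105 and 97.8 in preleukemic replicates 1 to 4. Mxd1 held 7.57% to 12.3% of that sum in the leukemic samples and 3.34% to 6.07% in the preleukemic samples, without overlap. The share of Mxi1 was 9.23% to 14.9% in the leukemic samples and 7.61% to 9.21% in the preleukemic samples, apart by a small margin. The shares of Mxd4 (38.9% to 55.4% against 52.2% to 65.3%), Mxd3 (15.6% to 29.7% against 9.28% to 21.9%) and Mnt (7.70% to 11.0% against 10.6% to 13.2%) overlapped. The shares were not tested. The ratio of the Myc family to the repressors was 0.593, 0.993 and 1.02 in leukemic replicates 1 to 3 and 0.673, 1.23, 0.595 and 0.515 in preleukemic replicates 1 to 4, so the groups overlapped and the highest ratio was preleukemic.

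Preleukemic replicate 2 stood apart in much of the network. Among the preleukemic samples it was highest for Myc, Max, Mxd4, Mxi1 and Mnt and lowest for Mxd3 and Mlx. Pvt1, the gene of a long non-coding RNA next to Myc, was at 10.9 FPKM in this sample, at 3.14, 3.79 and 3.47 in preleukemic replicates 1, 3 and 4, and at 2.0, 4.33 and 3.75 in leukemic replicates 1 to 3. Myc and Pvt1 were thus both highest there. Of the 15 nucleolar genes listed as raised by Myc, all 15 had their highest preleukemic value in this sample, where 27.0% of all genes tested did. In the other lists of raised genes, 7 of 10 translation and folding, 7 of 19 metabolic and 4 of 12 cell cycle genes did. Leukemic replicate 1, with the lowest Myc of its group, held the highest leukemic value of 29 of the 56 raised genes (51.8%). It did so for 37.0% of all genes tested. In Nop56, which encodes a protein of ribosomal RNA processing and was singled out after its values were seen, the value in preleukemic replicate 2 was 144 FPKM, against 95.7 to 103 in the other preleukemic and 95.5 to 116 in the leukemic samples.

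Because the study concerned gains of whole chromosomes, the level of Myc was set beside that of chromosome 15, which carries it. The chromosome level is the median over its 343 expressed genes of the log2 deviation from the preleukemic mean, less the same median over all genes. It was -0.0175, -0.00987 and 0.203 in leukemic replicates 1 to 3 and between -0.0321 and 0.0148 in the preleukemic samples. Chromosome 15 was thus raised in leukemic replicate 3 alone, and the samples with the highest Myc, preleukemic replicate 2 and leukemic replicate 2, had levels near 0. The genes around Myc on this chromosome gave 1 call among 9 tested (11.1%, near the 14.7% of all genes), with a median log2 fold change of 0.22. It was Sqle, an enzyme of cholesterol synthesis (0.70, SE 0.15, limma adjusted p = 0.0246), at 36.4, 48.3 and 33.7 FPKM in leukemic replicates 1 to 3 and at 28.1, 23.0, 21.7 and 22.0 in preleukemic replicates 1 to 4.

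**Figure D4:**
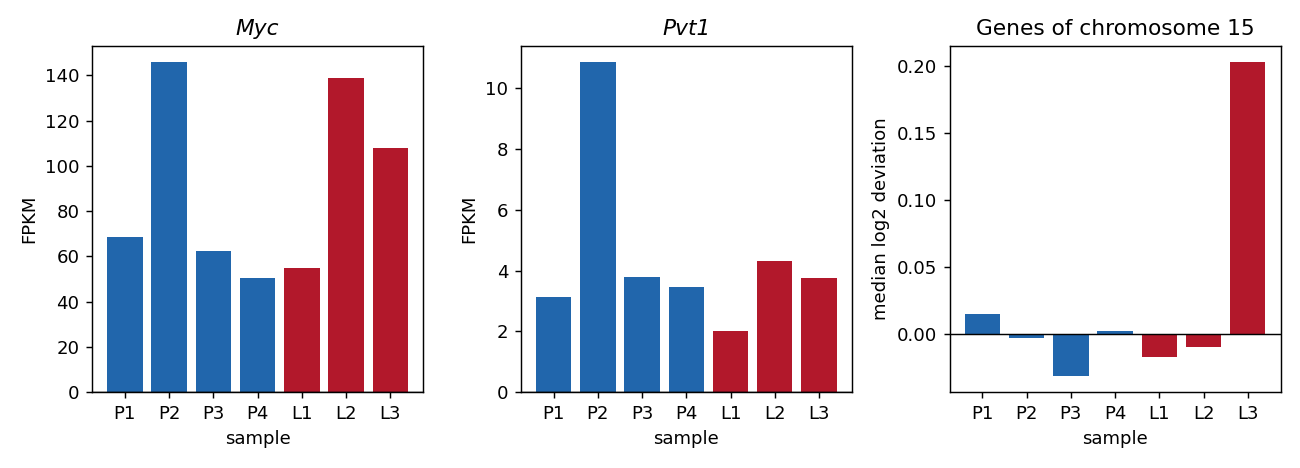
FPKM of Myc and Pvt1 and the level of chromosome 15 (median log2 deviation from the preleukemic mean, less that of all genes) in preleukemic samples P1 to P4 and leukemic samples L1 to L3. Myc and Pvt1 are highest in P2, and the chromosome level is raised in L3 only, at 0.203.

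Outside the 10 genes, the other proteins of the network were read in the same way. Mga, a Max-binding repressor with a T-box, was at 9.96, 13 and 15 FPKM in leukemic replicates 1 to 3 and at 15.7, 20.1, 18.2 and 18.1 in preleukemic replicates 1 to 4. Mlxip, which encodes the Mlx partner MondoA, was at 21.1, 23.9 and 31.5 FPKM in the leukemic samples and at 31.8, 40.1, 33.3 and 32.8 in the preleukemic samples. Neither gene overlapped between the groups, which held for 32.0% of all genes tested. Neither was called (-0.49 and -0.44, limma adjusted p = 0.0613 and 0.0867). Both were called lower without leukemic replicate 3 (-0.62, adjusted p = 0.0429, and -0.59, adjusted p = 0.0353), and Mga also under quantile normalization (adjusted p = 0.0499). Zbtb17, which encodes Miz1, a partner through which Myc lowers transcription, was called lower (-0.34, SE 0.08, limma adjusted p = 0.0324). It was at 12.5, 11.0 and 12.8 FPKM in leukemic replicates 1 to 3 and at 15.3 to 15.8 in the preleukemic samples, without overlap. Sin3a, Sin3b, Hdac1 and Hdac2, the deacetylase complex that Mxd proteins recruit, were not called. Of 16 genes that act on the stability of the Myc protein, 2 were called (12.5%, near the 14.7% of all genes). The ubiquitin ligase genes Stub1 (0.58, SE 0.11, limma adjusted p = 0.0191) and Trim32 (-0.34, SE 0.08, limma adjusted p = 0.0313) were these, and Fbxw7, the ligase best known for degrading Myc, was not called.

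Genes known to be raised by Myc were higher in the leukemic samples more often than lower, although Myc itself was not called. Over 4 lists, 16 of 56 genes tested were called higher and 0 lower (28.6% called, where all genes gave 8.47% higher), and 48 of the 56 had a fold change above 0, with a median of 0.34 beside -0.02 over all genes. The lists were written with earlier results of these data known. Of the genes called, Hmga1 lies on chromosome 17, Pkm, Impdh2 and Cdc25a on chromosome 9, Cct5 on chromosome 15, and the rest elsewhere. Chromosome 17 had levels of 0.368, 0.37 and 0.404 in leukemic replicates 1 to 3 and of -0.0606 to 0.134 in the preleukemic samples. Chromosome 9 had levels of 0.325, 0.282 and 0.0955, against -0.0621 to 0.118. Chromosome 15 was raised in leukemic replicate 3 alone, at 0.203. Stub1 is also on chromosome 17. The part of these levels in the calls was not tested. The count of higher calls was 10 and 9 without leukemic replicates 1 and 2, and 9, 4, 4 and 0 without preleukemic replicates 1 to 4, while the median stayed between 0.26 and 0.36. Under quantile normalization 12 were called higher and 1 lower, and without leukemic replicate 2 these were 9 and 2.

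Metabolic genes held 8 of the 16 calls (8 of 19 tested, 42.1%, where all genes gave 14.7%), with a median log2 fold change of 0.39. Odc1, the first enzyme of polyamine synthesis, was at 80.2, 113 and 69.4 FPKM in leukemic replicates 1 to 3 and at 49.4, 35.8, 29.2 and 26.9 in preleukemic replicates 1 to 4 (1.29, SE 0.24, limma adjusted p = 0.0185). Tfrc, the transferrin receptor, was at 68.5, 168 and 145 FPKM in the leukemic samples and at 59.2, 51.2, 39.3 and 43.1 in the preleukemic samples (1.30, SE 0.31, limma adjusted p = 0.0334). Tfrc is also abundant in erythroid precursors, and it was counted among the erythroid markers called as well as here. Like Mxd1, it was highest in leukemic replicate 2 and higher in preleukemic replicate 1 than in the other preleukemic samples. The part of erythroid cells in the metabolic calls was not tested. The other calls were Slc7a5 and Slc3a2, the chains of an amino acid transporter, Pkm and Ldha of glycolysis, and Impdh2 and Nme1 of nucleotide synthesis.

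The cell cycle genes gave 4 calls of 12 tested (33.3%, where all genes gave 14.7%), with a median of 0.47. The chromatin protein gene Hmga1 was at 54.8, 42.7 and 45.4 FPKM in leukemic replicates 1 to 3 and at 24.1, 30.8, 27.6 and 26.1 in preleukemic replicates 1 to 4 (0.79, SE 0.12, limma adjusted p = 0.0128). E2f1, a transcription factor of S phase entry, was also called (0.71, SE 0.18, limma adjusted p = 0.0411), as were Cks1b and Cdc25a. The nucleolar genes gave 2 calls of 15 (13.3%, near the 14.7% of all genes), Fbl (0.50, SE 0.14, limma adjusted p = 0.0485) and Npm1 (0.40, SE 0.11, limma adjusted p = 0.0493), with a median of 0.24. Fbl lost its call under 13 of 15 alternatives and Npm1 under 12 of 15, and Npm1 fell to 0.07 under quantile normalization (adjusted p = 0.688). The genes of translation and protein folding gave 2 calls of 10, Phb2 (0.39, SE 0.09, limma adjusted p = 0.0291) and Cct5 (0.33, SE 0.07, limma adjusted p = 0.0272), with all 10 above 0 and a median of 0.29. The hexamer CACGTG was in the promoter windows of 12 of the 46 raised genes that had one (26.1%), against 12.4% of the genes tested. By list, it was in 5 of 10 translation and folding, 4 of 16 metabolic, 2 of 11 nucleolar and 1 of 9 cell cycle genes.

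**Figure D5:**
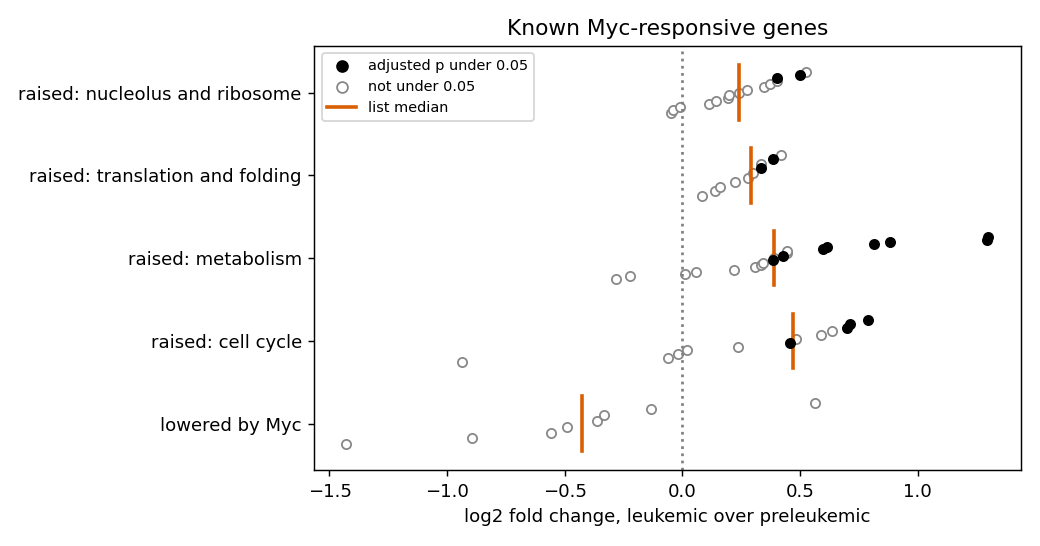
Log2 fold change, leukemic over preleukemic, of each gene tested in 4 lists of genes raised by Myc and in 1 list of genes lowered by Myc, with the list medians as bars. Filled points have an adjusted p under 0.05, and all 16 of them lie above 0 in the raised lists.

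Of 11 genes known to be lowered by Myc, 8 were tested and 0 were called by limma, with a median of -0.43 and 7 of 8 below 0. Of the 8, 2 had an unadjusted limma p under 0.05 (Txnip and Cdkn1a), as had 3586 of all 10541 genes, a larger share. Under the alternatives, between 0 and 2 of them were called lower, and 1 was called higher without leukemic replicate 1. Txnip, an inhibitor of thioredoxin and of glucose uptake, was at 111, 88.2 and 106 FPKM in leukemic replicates 1 to 3 and at 121, 137, 109 and 148 in preleukemic replicates 1 to 4 (-0.33, SE 0.13, limma adjusted p = 0.124), and the groups overlapped. Btg1, which restrains proliferation, was at 42.1, 43.8 and 113 FPKM and at 65.6, 91.5, 94.7 and 104 FPKM, with leukemic replicate 3 above all other samples (-0.56, SE 0.35, limma adjusted p = 0.291). Without that sample Btg1 was called lower (-1.02, adjusted p = 0.0316). Cdkn1a, an inhibitor of cyclin-dependent kinases, was singled out after its values were seen. It was at 4.03, 3.27 and 5.12 FPKM in the leukemic samples and at 10.6, 28.1, 11.3 and 7.41 in the preleukemic samples (-1.43, SE 0.39, limma adjusted p = 0.051). The groups did not overlap, which held for 32.0% of all genes tested. Cdkn1a was called lower under 3 of 14 alternatives, among them the fit without preleukemic replicate 2 (-1.07, adjusted p = 0.048).

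The genes with the most similar profiles over the 7 samples were sought among 8777 genes averaging 5 FPKM or more, by the root mean square difference of centered log2(FPKM + 1) values. For Myc they were Lgals3bp (0.262), Myadm (0.275) and Relt (0.301), all of them at a distance. Lgals3bp was at 12.3, 26.5 and 22.7 FPKM in leukemic replicates 1 to 3 and at 9.34, 22.2, 9.74 and 11.2 in preleukemic replicates 1 to 4. For Mxd1 they were Ppox (0.0514), an enzyme of heme synthesis, Ranbp10 (0.0827) and Trak2 (0.0832), and Ppox was at 18.8, 40.3 and 30.1 FPKM against 16.0, 10.9, 10.1 and 10.5. For Mxi1 they were Psmg1 (0.0591), a chaperone of proteasome assembly, and Nhp2 (0.0711) and Npm1 (0.0801), both nucleolar.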

How the data were processed

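The authors deposited 1 table of FPKM values for 7 libraries made with a stranded mRNA kit. The submitters' processing notes name STAR 2.5.0b, Bowtie, Cufflinks 2.2.1, bedtools 2.17.0, DESeq2 and mm10, without saying which tool made the FPKM. The study's methods describe DESeq2 on counts, but FPKM is not a count, so limma 3.58.1 in R 4.3.3 was used (lmFit, eBayes with an intensity trend, no covariates) on log2(FPKM + 1), with the study's threshold of 0.05. The study's filter was on summed counts, and here a sum of 10 was applied to FPKM instead. Samples were mapped to groups by their labels. Starts in the table count from 0 and 1 was added. Chromosome levels, ratios, profiles and motif counts came from Python 3.11.15 (numpy 2.4.6, pandas 2.3.3), and figures with matplotlib 3.10.9. Depth was read from genes with a single transcript, where 95.9% to 99.4% of low values were whole fragments within 0.1 fragment. The network genes have several transcripts, so their values are estimates over transcripts. In any pair of samples, at most 1 value above 0.01 was equal.

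Named are the 10 network genes, in each pathway list the 2 largest rises and falls among the genes called or else the 2 with the highest mean, and the 3 closest profiles for Myc, Mxd1 and Mxi1. Results for a few of these genes are not reported here. Genes named beyond this rule were chosen after their values were seen. The network genes and the lists were chosen with earlier results of these data known. The fit was tested on simulated data. The alternatives were another pseudocount (0.1), no filter, a filter at 70, quantile and median-of-ratios scaling, eBayes without trend or robust, the replicate number as a block, and each sample left out.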

Additional observations from a re-analysis of the deposited data

Results flagged for a closer look

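Among 55 sets of 4 preleukemic values examined, 4 had a sample far from the other 3 (a gap above Dixon's critical value, which chance alone gives in about 1 of 20 sets). Pvt1 was at 10.9 FPKM in preleukemic replicate 2 and at 3.14 to 3.79 in the others. The summed FPKM of the 10 network genes was 365 in the same sample and 241 to 259 in the others. The summed FPKM of the erythroid markers was 2857 in preleukemic replicate 1 and 424 to 449 in the others. The level of chromosome 5, which carries Mxd4, was -0.00983 in preleukemic replicate 3 and 0.00609 to 0.00898 in the others.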

How the results depend on the processing

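Genes called numbered 1553 and were 951 with a filter at 70, 0 with the replicate block (limma, 2429 at an unadjusted p under 0.05) and 149 to 1620 with 1 sample left out, the lowest without preleukemic replicate 4. Quantile normalization gave 754 higher and 907 lower, against 893 and 660. Network genes called numbered 2 and were 1 without a filter (Mxd1 lost, adjusted p = 0.0522), 1 with a filter at 70 (Mxd1 not tested), 0 with the replicate block and 0 to 1 with 1 sample left out. Pathway genes called numbered 22 and were 0 with the replicate block and 0 to 22 with 1 sample left out (11, 5, 4 and 0 without preleukemic replicates 1 to 4). The causes were not tested. The fold changes of Mxd1 (1.0 to 1.58) and Mxi1 (0.44 to 0.56) stayed above 0 under every alternative that tested them.

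The block drops preleukemic replicate 4, which has no leukemic partner. Samples with the same number correlated at 0.0294, 0.0502 and -0.0925 in their deviations from the group means. Of the leukemic samples only replicate 2 correlated best with its own number. All correlations were between -0.113 and 0.112, and with 3 and 4 samples they cannot decide whether the numbers pair the samples. With the block, Mxd1 was at 1.21 (unadjusted p = 0.0278, adjusted 0.179) and Mxi1 at 0.45 (unadjusted p = 0.0157, adjusted 0.148).

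Directions changed where values were near 0. Max went from -0.01 to 0.0078 with median-of-ratios scaling and ran from -0.0856 to 0.0797 with 1 sample left out (0.0547 without preleukemic replicate 2), Mxd4 ran from -0.537 to 0.0084, and the level of chromosome 12 in leukemic replicate 2 ran from -0.0188 to 0.00434. With 3 and 4 samples, changes as small as those of Mnt or Mlx are within the error, and the values of Mycn and Mycl are too low to compare at this depth.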
